A study of Sus scrofa with 10 samples.

Results

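The respiratory chain and the ATP synthase were represented in these pig livers by 63 genes. They are the genes whose single symbol in the platform annotation names a subunit of complex I (NDUFA, NDUFB, NDUFC, NDUFS, NDUFV), complex II (SDHA to SDHD), complex III (UQCR, CYC1), complex IV (COX4I, COX5 to COX8) or the ATP synthase (ATP5, complex V), or cytochrome c (CYCS), and for which at least 1 probe set averaged 4 or more (log2) over the 10 arrays. Names of this kind were carried by 64 genes, of 6765 genes with a single symbol on the array and 4730 that could be tested. The 63 genes comprised 32 of complex I, 4 of complex II, 2 of complex III, 7 of complex IV, 14 of complex V, cytochrome c, and 3 assembly factors of complex I (*NDUFAF1*, *NDUFAF2* and *NDUFAF3*). The assembly factors share the NDUFA letters, help to build complex I and are not part of the finished enzyme, so they were kept apart. *NDUFA4* was first named as a complex I subunit, is now assigned to cytochrome c oxidase, and was counted with complex IV. *CYC1* and *COX4I1* were not analysed here, since the annotation used names no probe set for them.

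Liver RNA came from females of a backcross of Iberian (Guadyerbas line) x Landrace F1 boars to Landrace sows, raised and fed alike and slaughtered at a common average age. The H group (n = 5) and the L group (n = 5) lay at opposite ends of the first principal component of carcass and intramuscular fatty acid traits, H with more polyunsaturated and L with more saturated and monounsaturated fatty acids in the muscle. The groups are thus extremes of 1 population, with no treatment, and full sibs and animals sharing a dam stood in opposite groups, so the animals are not fully independent. Each animal gave 1 GeneChip Porcine array, and the values are log2 intensities per probe set.

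Complex I takes electrons from NADH and complex II takes them from succinate, as a step of the citric acid cycle. Both pass them through ubiquinone to complex III, from there by cytochrome c to complex IV, and on to oxygen, while complexes I, III and IV pump the protons that drive the ATP synthase. In hepatocytes this machinery reoxidises the cofactors reduced by fatty acid oxidation and supplies the ATP for making glucose, urea and lipoproteins. The complexes other than complex II combine subunits from nuclear genes with subunits from mitochondrial DNA, and the latter were not analysed here.

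By their markers the samples read as liver. All 12 listed hepatocyte genes were tested. Their mean log2 level over the list ran from 14.61 to 14.82 in H and from 14.69 to 14.78 in L. None of the 6 skeletal muscle genes with a probe set, of 10 listed, passed the minimum. The lowest value on every array was 2.19, and a probe set at that value has only an upper bound. As a measure of RNA integrity, the signal of the *GAPDH* control from the 3' end exceeded that from the 5' end by 1.96 ± 0.28 log2 units in the H animals and by 1.99 ± 0.42 in the L animals (SD, 5 animals each). This excess, which rises in degraded RNA, was largest in L1, at 2.70 against 1.68 to 2.39 in the other 9 animals.

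The 63 genes differed little between H and L on these arrays, and none was called different. None of the 63 passed limma's test (adjusted p under 0.05 over 4730 genes), and none had an unadjusted p under 0.05, against 2.64% of all genes tested (125 of 4730, with 0.803% higher and 1.84% lower in H, and 0 of 4730 after adjustment). Their log2 differences, H minus L, ran from -0.25 for *ATP5G1* to 0.14 for *ATP5L*, with 32 above 0 and 31 below 0 and a median of 0.0013. Over all genes tested, 37.2% lay above 0 and the median was -0.04. The absolute difference had a median of 0.05 over the 63 genes and 0.10 over all genes, and it was over 0.1 for 12 of the 63 (19.0%) and for 48.5% of all genes. The smallest adjusted p among the 63 was 0.985 (limma, n = 5 each).

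The intervals limit how large a difference could have been missed. All 63 of the 95% intervals included 0, and 60 of the 63 (95.2%) lay within a fold of 1.5 in either direction, against 74.8% of all genes tested. The exceptions were *CYCS*, *ATP5G1* and *NDUFS6*, whose intervals reached down to folds of 0.587, 0.642 and 0.653. In whole liver, fewer cells of a type and less RNA per cell cannot be told apart, and a log2 intensity says nothing of protein or of enzyme activity.

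**Figure D1:**
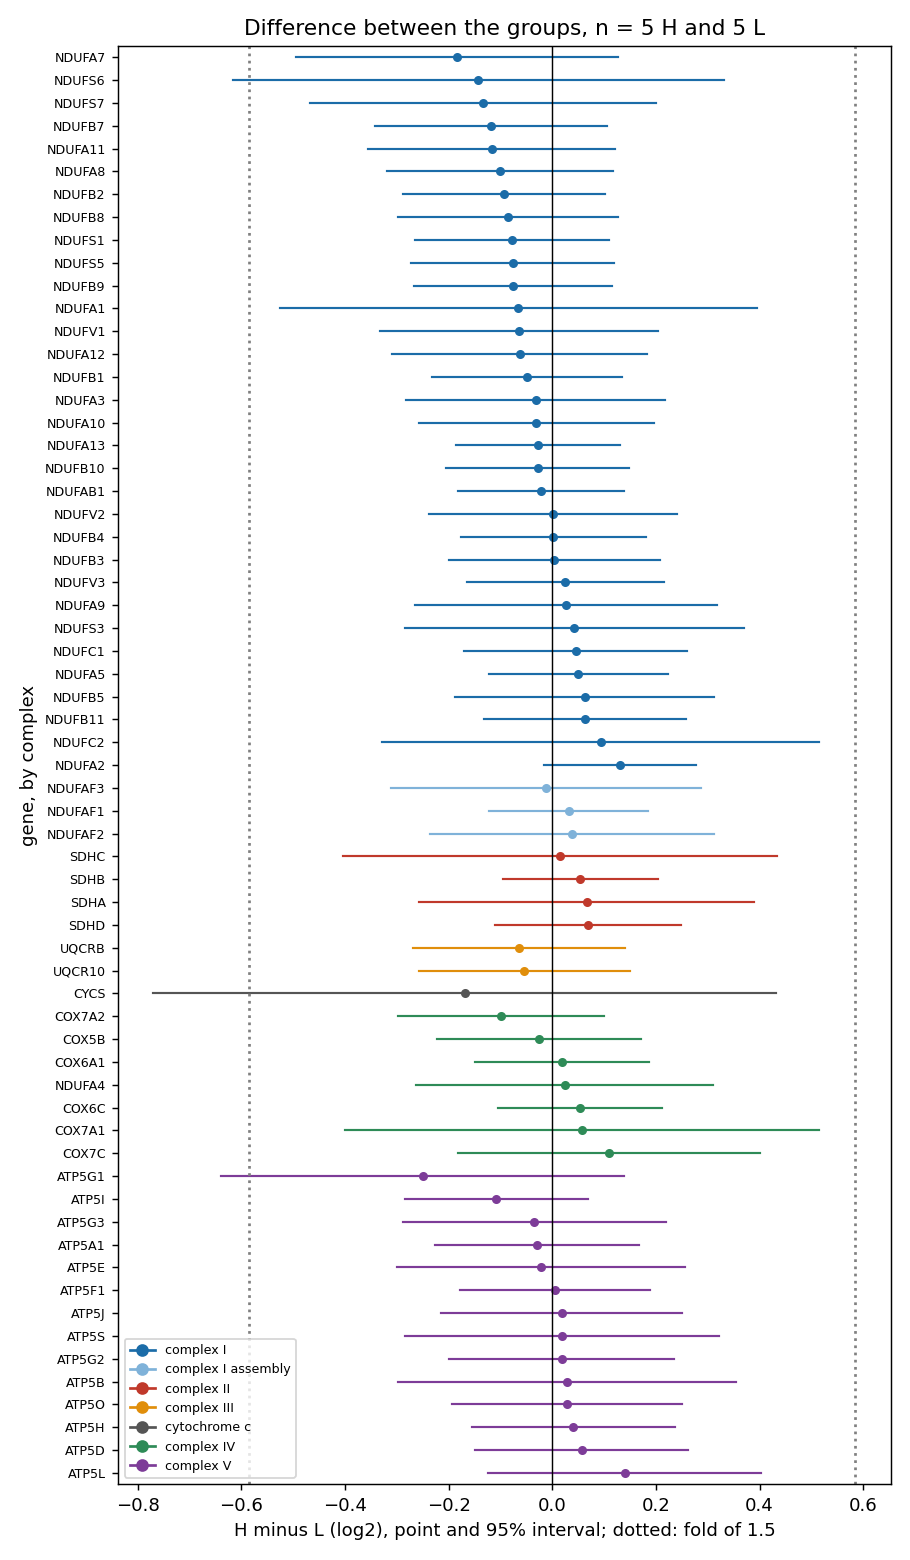
Log2 difference H minus L (x axis) of each of the 63 genes (y axis, ordered by complex and by difference), as a point with its 95% interval from limma, n = 5 H and n = 5 L; the dotted lines mark a fold of 1.5. All 63 intervals include 0, and those of CYCS, ATP5G1 and NDUFS6 cross the left dotted line.

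Complex I, the largest of the complexes, had 12 subunits above 0 (37.5%) and 20 below. Over all genes tested 37.2% lay above 0, so this split was that of the arrays at large. The median log2 difference of complex I was -0.03, with a range from -0.18 to 0.13. By position in the enzyme, 3 of 8 subunits of the N module, which binds NADH, lay above 0 (median -0.06), and 3 of 4 of the Q module, which hands electrons to ubiquinone (median 0.03). In the membrane arm, 2 of 9 subunits of the proximal part (median -0.03) and 4 of 11 of the distal part (median -0.03) lay above 0. Each part holds few genes, and these counts were not tested.

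*NDUFA2*, an accessory subunit of the N module, came nearest to separating the groups. It read 10.39, 10.36, 10.28, 10.32 and 10.36 in H1 to H5 and 10.08, 10.21, 10.20, 10.28 and 10.27 in L1 to L5 (log2). The groups overlapped only in that H3 lay just under L4, with 0.359% of all genes having groups that did not overlap and 0 of the 63. H averaged 10.34 ± 0.04 and L averaged 10.21 ± 0.08 (SD over 5 animals each), so that H minus L was 0.13 log2 units, with a standard error of 0.07 and a 95% interval from -0.02 to 0.28. The exact permutation test over the animals gave p = 0.0159 (two-sided), the only such p under 0.05 among the 63 genes, against 3% of all genes tested (142 of 4730). In limma its unadjusted p was 0.0762 and its adjusted p was 0.985. *NDUFA2* had the smallest SD of the 63, 0.064, and a difference of this size is small beside the spread of most genes. With any single animal left out, its difference stayed between 0.10 and 0.15.

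At the other end, *NDUFA7*, another subunit of the matrix arm, had the most negative statistic of complex I. It read 7.47, 7.59, 7.71, 7.95 and 7.58 in H1 to H5 and 7.60, 7.59, 8.19, 8.05 and 7.79 in L1 to L5 (log2). Only L3 and L4 exceeded the highest H animal, and the difference was -0.18 (standard error 0.14, limma adjusted p = 0.985).

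*NDUFS6*, a small zinc-binding subunit of the N module, varied most between animals within complex I. It read 7.13, 6.94, 7.91, 7.85 and 7.87 in H1 to H5 and 7.50, 7.48, 7.89, 7.57 and 7.97 in L1 to L5 (log2). H1 and H2 were the lowest of all 10 animals while the rest of H matched the highest L animals, so the group means differed by -0.14 (standard error 0.21). *NDUFC2*, of the membrane arm, also spanned more than 1 log2 unit, from 11.20 in L3 to 12.26 in H1, and its difference was 0.09 (standard error 0.19). *NDUFV3* lay closest to the minimum of 4, at a mean of 4.93, with values from 4.71 to 5.14. On the other side of that minimum, *COX8H*, the heart type of a complex IV subunit, was at the lowest value of 2.19 on all 10 arrays and was left out.

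The 3 assembly factors of complex I had differences of 0.03 (*NDUFAF1*), 0.04 (*NDUFAF2*) and -0.01 (*NDUFAF3*), with standard errors of 0.07, 0.12 and 0.13.

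All 4 genes of complex II, the succinate dehydrogenase, had a difference above 0, from 0.01 to 0.07 with a median of 0.06, and none came near its threshold. With single animals left out, *SDHA* fell as low as -0.013 and *SDHC* as low as -0.086, while *SDHB* and *SDHD* stayed above 0. *SDHD*, a membrane anchor, read 12.48, 12.29, 12.24, 12.34 and 12.39 in H1 to H5 and 12.25, 12.40, 12.28, 12.11 and 12.36 in L1 to L5 (log2). Its groups overlapped, and the difference was 0.07 (standard error 0.08, limma adjusted p = 0.985). *SDHC*, the other anchor, had the widest spread of the complex, at 10.11, 9.69, 10.44, 10.06 and 10.58 in H1 to H5 and 9.81, 10.63, 10.06, 10.11 and 10.21 in L1 to L5. Its SD within groups, 0.32, was far larger than its difference of 0.01 (standard error 0.19). *SDHA*, the flavoprotein that oxidises succinate, and *SDHB*, the iron-sulfur subunit, differed by 0.07 (standard error 0.15) and 0.05 (standard error 0.07). The small error of *SDHB* is that of an average of probe sets that disagreed over the animals, with SDs within groups of 0.17 and 0.16.

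Both measured subunits of complex III lay slightly below 0. *UQCR10*, a small subunit of the complex, read 11.75, 11.98, 11.69, 11.59 and 11.52 in H1 to H5 and 11.77, 11.72, 11.71, 11.83 and 11.77 in L1 to L5 (log2). The H animals spread to both sides of a narrow L group, with SDs of 0.18 and 0.05, and the difference was -0.05 (standard error 0.09, 95% interval -0.26 to 0.15). *UQCRB*, which lies at the ubiquinone site, read 12.01, 11.87, 11.89, 11.94 and 11.73 in H and 11.88, 11.92, 12.15, 11.75 and 12.06 in L, and H minus L was -0.06 (limma adjusted p = 0.985, standard error 0.09). With 2 genes named by the annotation used, complex III is thinly covered here.

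*CYCS*, the mobile carrier between complexes III and IV, varied more between animals than any of the subunits. It read 10.63, 10.28, 10.77, 11.62 and 10.63 in H1 to H5 and 10.37, 10.68, 11.43, 11.35 and 10.95 in L1 to L5 (log2). H4, L3 and L4 were high and H2 and L1 low, so high and low animals were found in both groups. Its SD within groups was 0.47, larger than in 89.8% of all genes tested, and its difference was -0.17 (standard error 0.27, limma adjusted p = 0.985). Without H4 the difference was -0.38, and without H2 it was -0.04.

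Of the 7 genes of complex IV, 5 lay above 0, the median being 0.02 and the extremes -0.10 and 0.11. *COX7C* had the most positive statistic, at 12.88, 13.29, 13.12, 13.15 and 12.85 in H1 to H5 and 13.20, 13.19, 12.83, 12.67 and 12.86 in L1 to L5 (log2). In H 3 animals and in L 2 animals were above 13, and the difference of 0.11 had a standard error of 0.13. *COX7A2*, the form of subunit 7A made in liver, had the most negative statistic, at 11.42, 11.45, 11.34, 11.32 and 11.46 in H and 11.22, 11.53, 11.66, 11.56 and 11.50 in L. All L animals but L1 were above all H animals, and the difference was -0.10 (standard error 0.09, limma adjusted p = 0.985). Without L1 it was -0.17 (standard error 0.07, limma unadjusted p = 0.0466, adjusted p = 0.949).

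*COX7A1*, the form of the same subunit known from heart and skeletal muscle, was well above the lowest value in every liver. It read 10.62, 10.96, 10.70, 10.03 and 10.15 in H1 to H5 and 10.66, 10.74, 9.93, 10.44 and 10.41 in L1 to L5 (log2). Its SD within groups of 0.36 was the largest of complex IV, against 0.13 for *COX7A2*. L3 had the lowest value of *COX7A1* and the highest of *COX7A2*. The group difference of *COX7A1* was 0.06 (standard error 0.21), with H2 the highest animal.

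Of the 14 genes of complex V, 9 lay above 0, with a median of 0.02. Among the 14, *ATP5S* (0.02, standard error 0.14) is a coupling factor rather than a structural subunit, and was counted by its name. The 4 genes of the F1 head and central stalk (*ATP5A1*, *ATP5B*, *ATP5D* and *ATP5E*), which make ATP, had differences from -0.03 to 0.06. The 4 of the peripheral stalk, which holds the head still (*ATP5F1*, *ATP5H*, *ATP5J* and *ATP5O*), were all above 0, from 0.0053 to 0.04. Their standard errors ran from 0.08 to 0.10, and each of the 4 fell below 0 when a single animal was left out. *ATP5B*, the catalytic subunit, averaged 12.65 ± 0.19 over the H and 12.62 ± 0.29 over the L animals (log2, SD), with L1 the lowest animal at 12.14.

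The c ring, which turns as protons pass, has a single mature subunit made from 3 genes that differ in their import sequences. *ATP5G1* had the largest difference of the 63, -0.25 (standard error 0.17, limma adjusted p = 0.985). It read 10.50, 10.56, 10.26, 10.59 and 10.43 in H1 to H5 and 10.18, 10.56, 11.27, 10.79 and 10.81 in L1 to L5 (log2). L3, L4 and L5 were above all H animals and L1 was below them. The difference was -0.39 without L1 (limma unadjusted p = 0.0229, adjusted p = 0.949) and -0.11 without L3. *ATP5G2* and *ATP5G3* did not share it, at 0.02 (standard error 0.10) and -0.03 (standard error 0.11), although the difference between the 3 genes was not tested.

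*ATP5L*, subunit g of the membrane part, had the most positive difference of complex V. Over its 3 probe sets it averaged 8.67, 8.36, 8.44, 8.26 and 8.29 in H1 to H5 and 8.25, 8.44, 7.96, 8.19 and 8.47 in L1 to L5 (log2), and H minus L was 0.14 (limma adjusted p = 0.985, standard error 0.12). The sign depended on the probe set: the brightest, with a mean of 12.00, had a difference of -0.077 (standard error 0.08), and the other two, with means of 7.32 and 5.68, of 0.25 each (standard errors 0.16 and 0.19). *ATP5I*, subunit e, differed by -0.11 (standard error 0.08), and along with *NDUFA2* it was the only gene of the 63 with a difference larger than its SD within groups.

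Chain and synthase genes varied little from pig to pig. The median SD within groups was 0.14 log2 units over the 63 genes, against 0.22 over all genes tested, and 50 of the 63 lay below that median. Brightness moves with the SD on such arrays. Among the 49 chain and synthase genes with a mean of at least 9, the median SD was 0.14, against 0.20 for all 1515 genes at that level, and 37 of the 49 lay below it. By complex the median SD was 0.14 in complex I, 0.17 in complex II, 0.13 in complexes III and IV and 0.15 in complex V. Over the 10 animals, 36 of the 63 genes spanned less than 0.5 log2 units and 5 spanned more than 1 (*CYCS*, *ATP5G1*, *NDUFC2*, *COX7A1* and *NDUFS6*).

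**Figure D2:**
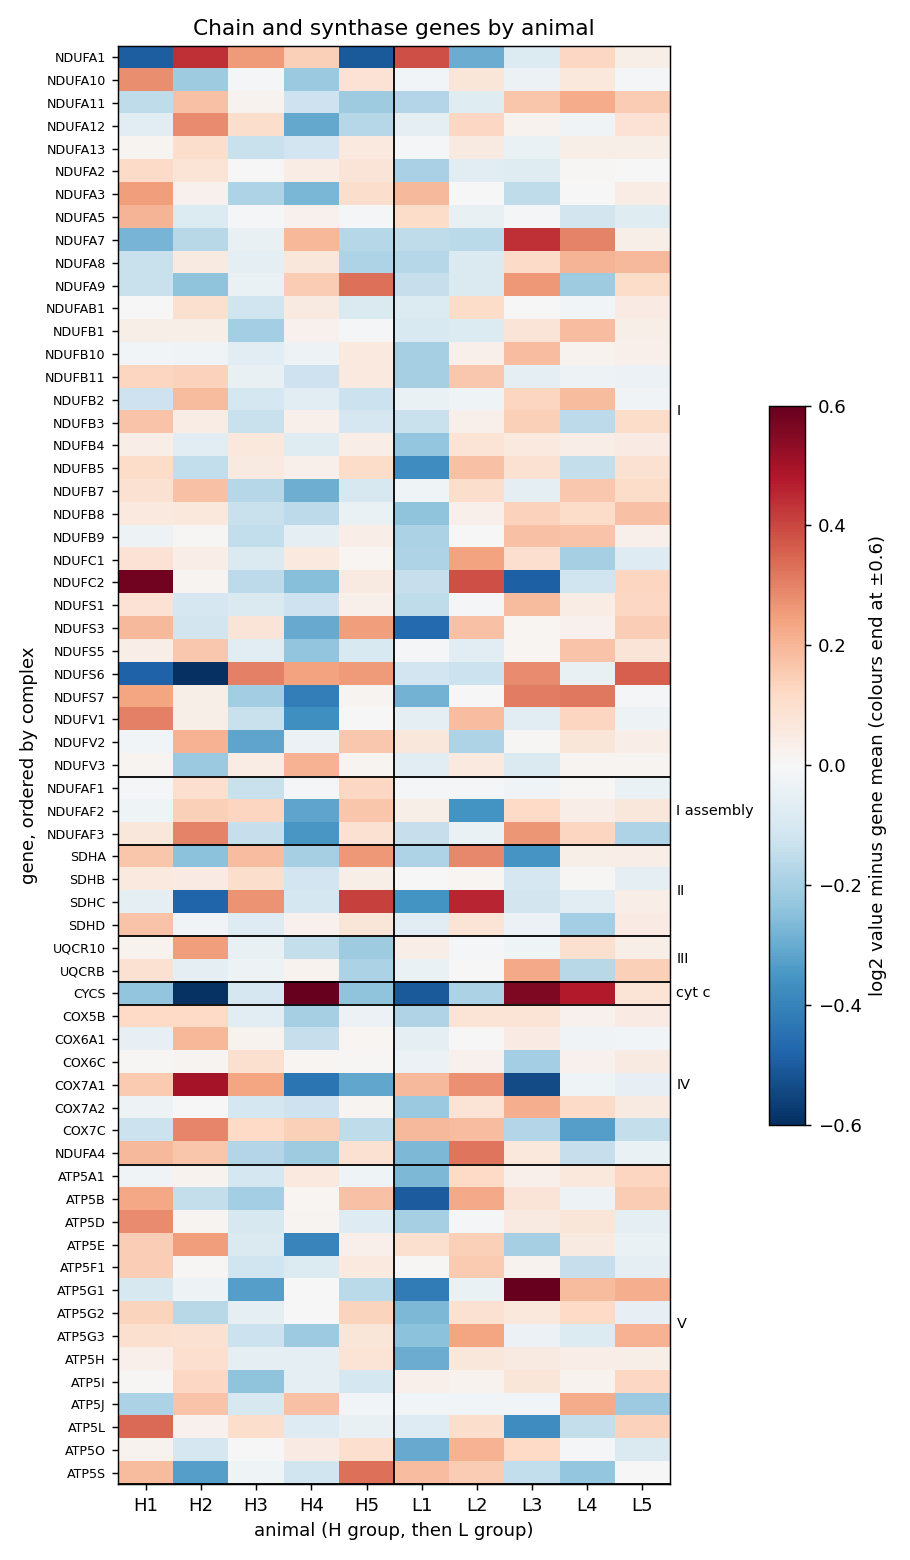
Deviation of each of the 63 genes (rows, grouped by complex) from its own mean over the 10 animals (columns, H then L), on the log2 scale, with colours ending at 0.6 in either direction. The column of L1 is mostly below 0, with 12 of 63 genes above their mean, and CYCS, NDUFS6 and ATP5G1 show the strongest single deviations.

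A small part of the variation was shared between genes within an animal. The animals' median deviations over the 63 genes had an SD within groups of 0.064 log2 units, against a median of 0.14 for single genes. In L1, 12 of the 63 genes (19.0%) were above their own mean of the 10 animals, against 47.3% of all genes tested on the same array. H3 and H4 were also low, with 18 and 23 of 63 genes (28.6% and 36.5%) above their mean. The shares of all genes on those arrays were 45.5% and 45.9%. The other 7 animals had between 37 and 41 (58.7% to 65.1%). Their shares of all genes were less alike, from 35.9% in H1 to 60.0% in L4. L1 held the lowest value of 19 of the 63 genes and the highest of none, whereas it held the lowest value of 10.95% and the highest of 7.95% of all genes. Low animals were thus found in both groups, 2 in H and 1 in L.

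The shift in L1 was small, with a median deviation of -0.13 log2 units over the 63 genes, against -0.01 over all genes. By complex, 4 of 32 subunits of complex I, 0 of 4 of complex II, 1 of 2 of complex III, 2 of 7 of complex IV and 4 of 14 of complex V were above their mean in L1, with median deviations of -0.14, -0.12, -0.00055, -0.06 and -0.22. In the distal membrane arm of complex I it was 0 of 11. After each array was centred on its median, 11 of the 63 were above their mean in L1, 20 in H3 and 23 in H4. The other 7 animals spread from 31 in L3 to 51 in L2. Centred shares of all genes tested ran from 43.8% in H4 to 57.7% in L2.

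**Figure D3:**
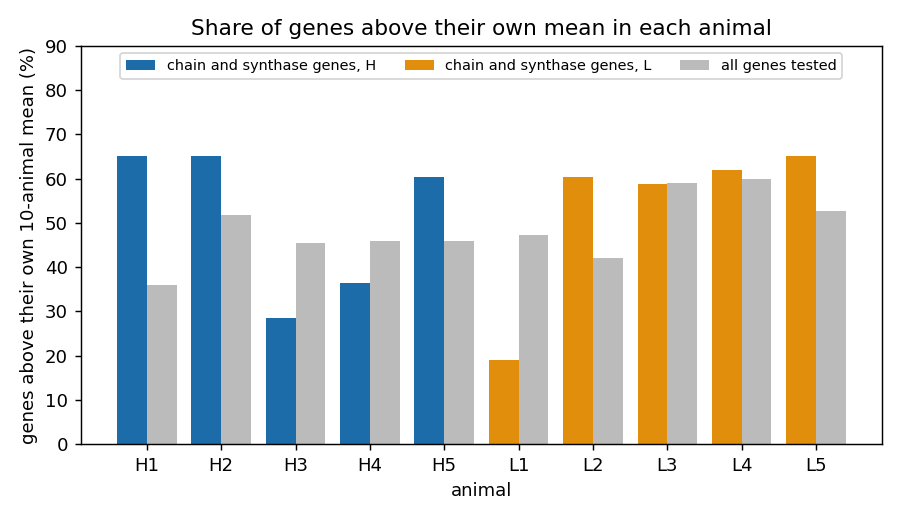
Share of genes above their own mean over 10 animals (y axis, percent) in each animal (x axis), for the 63 chain and synthase genes (coloured by group) and for all 4730 genes tested (grey). L1 at 19.0% and H3 at 28.6% lie far below the grey bar of the same array, and the H and L bars overlap.

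Other measures moved with L1. It had the largest 3' minus 5' difference of *GAPDH*, 2.70, while H3, the next lowest animal for the chain, had one of the smaller values, 1.70. With that difference as a covariate, 0 genes of the 63 had an adjusted p under 0.05 and 30 of the 63 lay above 0. Of the markers of Kupffer cells, endothelium and stellate cells, 11 of the 22 listed genes were tested. The rest had no probe set or lay under the minimum. In L1, 0 of the 11 were above their mean, against 47.3% of all genes tested. *COL1A2* among them had the same value of 6.17 in L1, H1, H5 and L5. The mean log2 level of the 4 Kupffer cell genes was 8.96 in L1, the lowest of L (8.96 to 9.50) and within the range of H (8.71 to 9.53), whereas 8 of the 12 hepatocyte genes were above their mean in L1. The mean of the 4 stellate cell genes in L1, 7.16, was the lowest of all animals (7.52 to 7.98 in H and up to 8.29 in L). Of those 4, *DCN* spread most, from 7.07 in L1 to 10.24 in L5. The mean of the 3 endothelial genes in L1, 6.93, lay within the range of both groups (6.66 to 7.38 in H, 6.67 to 7.58 in L). In H3 all 4 Kupffer cell genes, all 3 endothelial genes and 3 of the 4 stellate cell genes were above their mean. So were 8 of the 12 hepatocyte genes, against 45.5% of all genes tested. Of the 2 tested genes of bile duct cells, 1 was above its mean in L1 and 0 in H3. The red cell gene *HBB* was below its mean in L1 and above it in H3. The part of RNA quality or of cell types in the low values of L1 was not tested.

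The complexes did not all follow the same animals. Complex I and complex V were both lowest in L1 and both low in H3, with medians in H3 of -0.06 and -0.10. Complex II was high in H1 (0.11), H3 (0.15), H5 (0.17) and L2 (0.19) and low in H2 (-0.13), H4 (-0.11), L3 (-0.11) and L1 (-0.12). H4 and L1 were below 0 in all 5 complexes. Complex IV was highest in H2 (0.16) and lowest in H4 (-0.14). Pearson correlations between pairs of genes were taken over the 10 animals, after each group was centred on its mean. Their median was 0.18 for the 63 genes and 0.025 over all pairs of genes tested. By complex it was 0.20 in I, 0.32 in II, 0.0021 in III (2 genes), 0.23 in IV and 0.27 in V. These pairs share the same 10 arrays and are a description. Without L1 the median was 0.12 for the 63 genes. By complex it was then 0.094 in I, 0.32 in II, 0.011 in III, 0.42 in IV and 0.13 in V. The medians of complexes I and V were thus lower without L1. No other animal was left out here, and L1 was picked as the lowest for the 63 genes. Whether leaving out another animal would lower these medians as much was not tested.

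**Figure D4:**
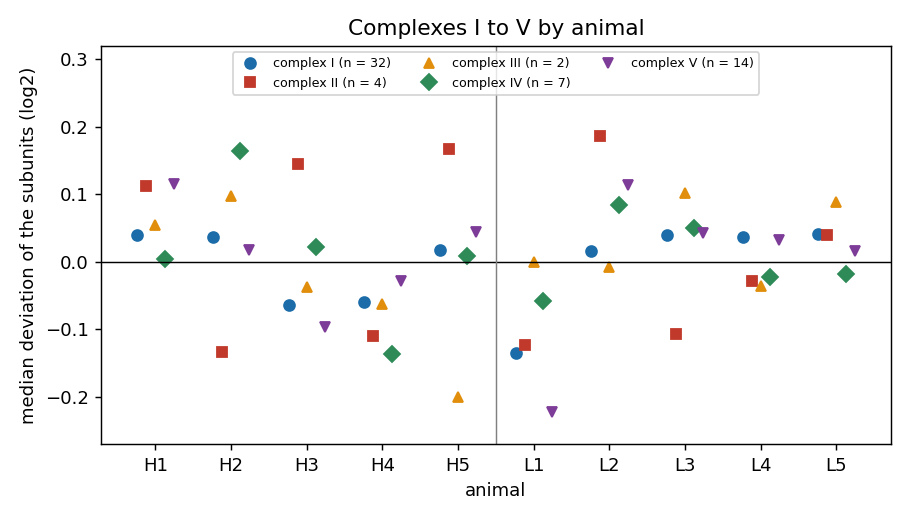
Median deviation of the subunits of each complex from their own means over 10 animals (y axis, log2) in each animal (x axis; H left and L right of the grey line). Complex V (-0.22) and complex I (-0.14) are lowest in L1, complex II is highest in L2 (0.19), and no complex separates H from L.

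For 8 of the 63 genes more than 1 probe set passed the minimum, which shows how far 1 gene's readings can differ. In 5 of the 8 (*ATP5L*, *ATP5S*, *NDUFA1*, *NDUFB3* and *NDUFV2*), the probe sets differed in the sign of H minus L, and among the 72 probe sets of the 63 genes 37 lay above 0, against 43.8% of 11756 probe sets, and 0 had an unadjusted p under 0.05 (limma, against 3.09%). *NDUFA1*, a subunit of the membrane arm, had probe sets of the most unequal spread, with SDs within groups of 0.13 and 0.70. Its brighter probe set stayed between 10.44 and 10.78 in all animals, while the other read 8.28, 10.00, 9.94, 9.61 and 8.44 in H1 to H5 and 10.13, 8.66, 9.31, 9.70 and 9.23 in L1 to L5 (log2). The second probe set was low in H1, H5 and L2 and high in L1, a pattern that the first did not show, and the spread of *NDUFA1* therefore rests on 1 of its 2 probe sets.

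*NDUFS3*, a core subunit of the Q module, was the opposite case. Both of its probe sets were lowest in L1 and highest in H5. The brighter read 10.38, 10.11, 10.27, 9.97 and 10.42 in H1 to H5 and 9.93, 10.31, 10.16, 10.18 and 10.41 in L1 to L5 (log2). The dimmer repeated that order at its ends, from 5.61 in L1 to 6.56 in H5. For *SDHA* the probe sets agreed only in part: the dimmer one ranged from 7.97 in H2 to 9.12 in L2, and the brighter one from 10.75 in L3 to 11.23 in H1. The probe sets of *SDHB* ran against each other in some animals. L3 had the lowest value of the brighter one, 11.94, but a high value of the dimmer one, 9.71. H2 was low on the brighter one, at 12.18, and highest on the dimmer one, at 9.77. Their SDs within groups were 0.17 and 0.16, against 0.07 for their average.

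**Figure D5:**
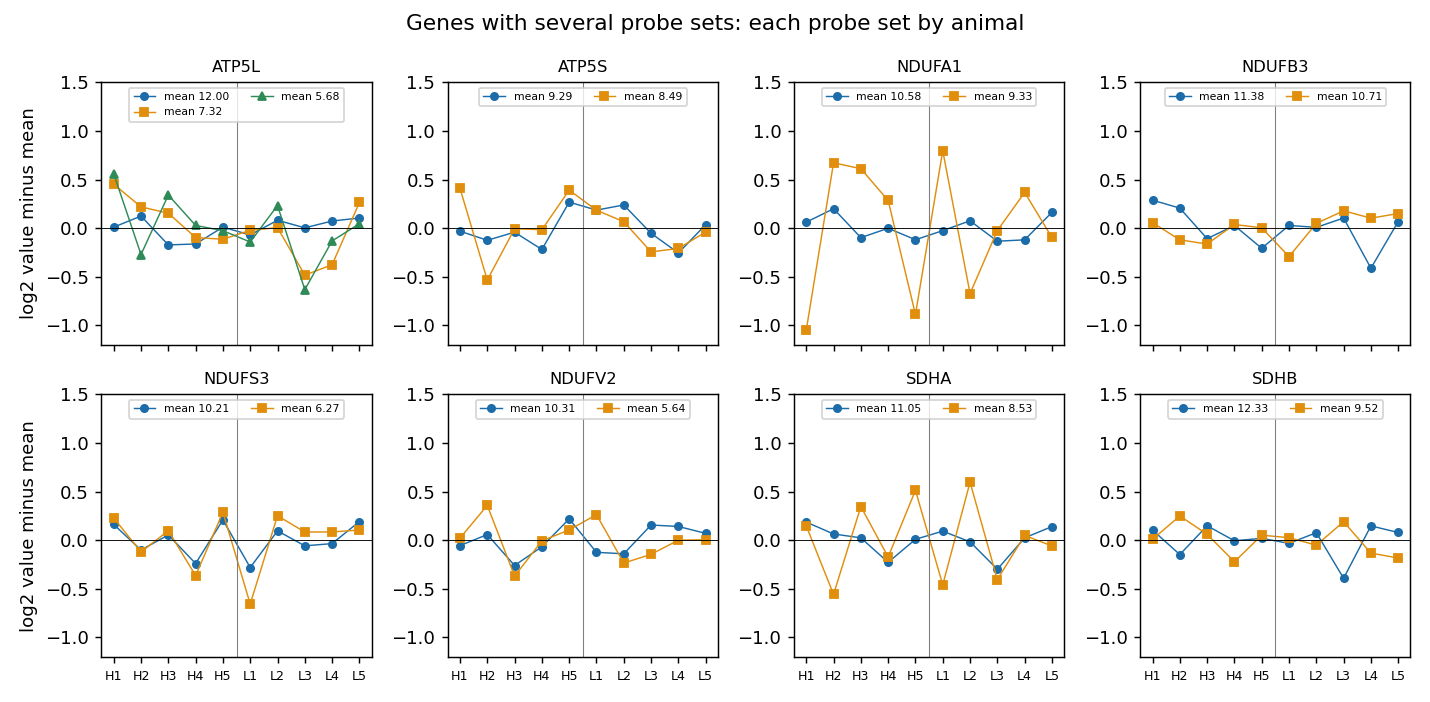
The 8 genes with several probe sets, each probe set as its deviation from its own mean (y axis, log2) in each animal (x axis); the key gives the mean log2 value of each probe set. The second probe set of NDUFA1 swings between 8.28 and 10.13 while the first stays within 10.44 to 10.78, and both probe sets of NDUFS3 are lowest in L1.

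Elsewhere in the mitochondrial energy pathway no gene had an adjusted p under 0.05 either. The counts above 0 in these lists stand beside 37.2% of all genes tested. In the citric acid cycle, which feeds the chain, 5 of 12 tested genes lay above 0 (median -0.03) and none had an unadjusted p under 0.05. The smallest p belonged to *DLD*, a subunit of the oxoglutarate dehydrogenase complex of the cycle. *DLD* averaged 12.21 ± 0.22 over the H and 12.00 ± 0.16 over the L animals (log2, SD, limma adjusted p = 0.985). Of 10 tested assembly factors for complexes I to V, 3 lay above 0 (median -0.06), and *ATPAF1*, which helps to build the F1 head, had the smallest p with a difference of -0.24 (standard error 0.14).

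Among 6 tested regulators of mitochondrial biogenesis 4 lay above 0, and *TFAM*, which packages and transcribes mitochondrial DNA, averaged 8.60 ± 0.27 over the H and 8.34 ± 0.30 over the L animals (log2, SD; limma adjusted p = 0.985). Of 8 tested carriers of ADP, ATP and phosphate, voltage-dependent channels and the ATP synthase inhibitor, 1 lay above 0, with a median of -0.08, and *VDAC2* was at -0.16 (standard error 0.13). Of 6 genes of ubiquinone synthesis and of the electron transfer flavoprotein 3 lay above 0, and *ETFA* was at 0.14 (standard error 0.14). None of these genes had an unadjusted p under 0.05.

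Of 56 tested proteins of the mitochondrial ribosome, which makes the subunits encoded in mitochondrial DNA, 23 lay above 0 (median -0.02). A single one, *MRPL50*, had an unadjusted p under 0.05 (limma p = 0.0440, adjusted p = 0.985, exact permutation p = 0.0397), against 0.803% of all genes on that side. It read 8.69, 8.49, 8.71, 9.24 and 8.92 in H1 to H5 and 8.53, 8.55, 8.53, 8.45 and 8.53 in L1 to L5 (log2). H2 lay within the narrow L group and the other H animals above it, for a difference of 0.29 (standard error 0.13). In L1, 0 of the 8 carriers and channels, 0 of the 6 ubiquinone genes, 3 of the 12 citric acid cycle genes 4 of the 10 assembly factors, 3 of the 6 biogenesis regulators and 20 of the 56 ribosomal proteins were above their own mean, against 47.3% of all genes tested.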

How the data were processed

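Liver RNA of 10 pigs was measured on Affymetrix GeneChip Porcine arrays, 1 per animal. Scanned signals were obtained with GCOS and normalized with GCRMA by the authors, who deposited log2 values for each probe set; versions are not given in the sources used here. Arrays give no depth, and their number limits the precision. The 24123 probe sets included 124 controls, which were left out. Probe sets with a single symbol (10069) were named through the platform annotation, updated by Entrez ID for 9961 (RefSeq Sscrofa11.1 names). Each gene took the average of those of its probe sets that averaged 4 or more.

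Differences H minus L were fitted for 4730 genes by limma 3.58.1 (lmFit and eBayes, two-sided, without covariates; R 4.3.3), p-values were adjusted by Benjamini-Hochberg, and 0.05 was the threshold; the fit was tested on simulated data. Exact permutation tests enumerated the 252 splits of the animals (Python 3.11.15, numpy 2.4.6). The kinship of the animals was not modelled. The members and lists were chosen with earlier results of these data known. Described with values were, per complex, the genes with the extreme moderated t and the largest SD, the smallest SD of all, *UQCR10*, *CYCS*, genes beside the minimum of 4 and the smallest p of each list; *NDUFC2*, *NDUFA1*, *NDUFS3*, *SDHA*, *ATP5B* and *ATP5I* were added after their values were seen. Alternatives changed the filter, normalization, weights, prior, probe set rule, GAPDH covariate and animals included; the counts of genes above their own mean were repeated without L1 and with centred arrays after the data were seen.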

Additional observations from a re-analysis of the deposited data

Results flagged for a closer look

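Dixon's criterion (95% limit of 0.71 for 5 values) compares the distance between an extreme animal and its neighbour with the whole spread of its group. Chance places about 1 in 20 groups past it, and 3 of the 42 groups tested were, all through L1. The median deviation over the 63 genes was -0.13 in L1, against 0.03 to 0.04 in the other L animals. That of complex I was -0.14, against 0.02 to 0.04, and that of complex V was -0.22, against 0.02 to 0.11. The complex I and V medians are part of the first, so the 3 are not separate observations.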

How the results depend on the processing

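No gene, of the 63 or of all tested, had a limma adjusted p under 0.05 under any alternative run. The number of the 63 genes above 0 stayed between 23 and 36 with single animals left out, and the median of complex I stayed between -0.063 and -0.015. Of the 63 genes, 35 took both signs as animals were left out in turn, and 28 kept their sign. With single animals left out, between 0 and 2 of the 63 genes had an unadjusted p under 0.05 (2 without L1, *ATP5G1* and *COX7A2*), and 2 with no filter on dim probe sets, *NDUFA2* and *ATP5J*. Without the filter *NDUFA2* kept its difference of 0.13, and its standard error fell from 0.07 to 0.04. The difference of *ATP5J* was then 0.29, against 0.02 with the filter, as its average took in a probe set with a mean of 2.915, near the lowest value. The difference of *ATP5L* turned to -0.077 (standard error 0.08) when its brightest probe set alone was used. With the animal number as a replicate block 0 of the 63 genes had an adjusted p under 0.05; same-numbered animals had correlations of deviations from -0.24 to 0.28, and 1 of 5 H animals matched its own number best, so they share only a number. Kinship and hybridisation batches were not modelled, complex III rests on 2 genes, and 5 animals a group limit every interval.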
